A study of Mus musculus with 2 samples.

Results

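The spectrin-based membrane skeleton was examined through 9 genes: the spectrins Sptan1 and Sptbn1, the ankyrins Ank2 and Ank3, the protein 4.1 genes Epb41, Epb41l1, Epb41l2 and Epb41l3, and the adducin gene Add1. Every exon trio that SpliceTrap, the program that estimated exon inclusion, placed inside one of these genes on its strand was taken, and 411 of 419 trios had at least 20 reads in each library. They described 298 distinct exons of the 120032 that passed the same minimum in the whole data set. Of the 298 exons, 38 had a trio of an alternative class (cassette, alternative acceptor or alternative donor) and 260 were listed as constitutive. The cells were N2A, a mouse neuroblastoma line, 3 days after transfection of a control shRNA or of an shRNA against Ptbp1. Ptbp1 encodes polypyrimidine tract-binding protein, which binds runs of C and U in pre-mRNA and represses many exons that neurons include. Both groups were the same line treated alike except for the shRNA, and each was 1 library, so no difference below has a replicate check.

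Spectrin is a long flexible rod built from alpha and beta subunits, and it forms a lattice beneath the plasma membrane. Ankyrins tie beta spectrin to channels and adhesion molecules, proteins of the 4.1 family stabilise the contact between spectrin and actin, and adducin caps actin filaments and recruits spectrin to them. In neurons, giant forms of the ankyrins arise when a very long internal exon is spliced in. The giant form of ankyrin-G, from Ank3, organises the axon initial segment, and the giant form of ankyrin-B, from Ank2, is found along axons.

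Inclusion is given as PSI, the percent of transcripts that contain the exon. An exon rose where PSI was at least 5 points higher in knockdown cells and the 95% Newcombe interval of the difference, taken from the junction reads of its trio, lay above 0. It fell where the mirror held. By this rule 10 of the 298 exons rose (3.36%), against 0.748% of all exons tested, and 3 fell (1.01%), against 0.701%. Among exons with an alternative trio, 9 of 38 rose (23.7%), against 5.77% of all such exons, and 3 of 38 fell (7.89%), against 4.03%. The genes were chosen with earlier results of these libraries known, so these shares describe the family and are not independent evidence about it. The exons that rose were in Add1 and Epb41l3 (3 each), Ank3, Epb41l1, Epb41l2 and Sptan1 (1 each), and those that fell were in Ank3, Epb41 and Epb41l3. Of the 13 called exons, 12 were a multiple of 3 nucleotides long, as were 36 of the 38 exons with an alternative trio (94.7%, against 47.4% of all such exons). Intervals cover counting error only. They belong to the difference in inclusion by junction reads, so a change in PSI can lie outside its interval. It did so for the Ank3 exon of 27 nucleotides and the Epb41l1 exon of 36 nucleotides.

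**Figure D1:**
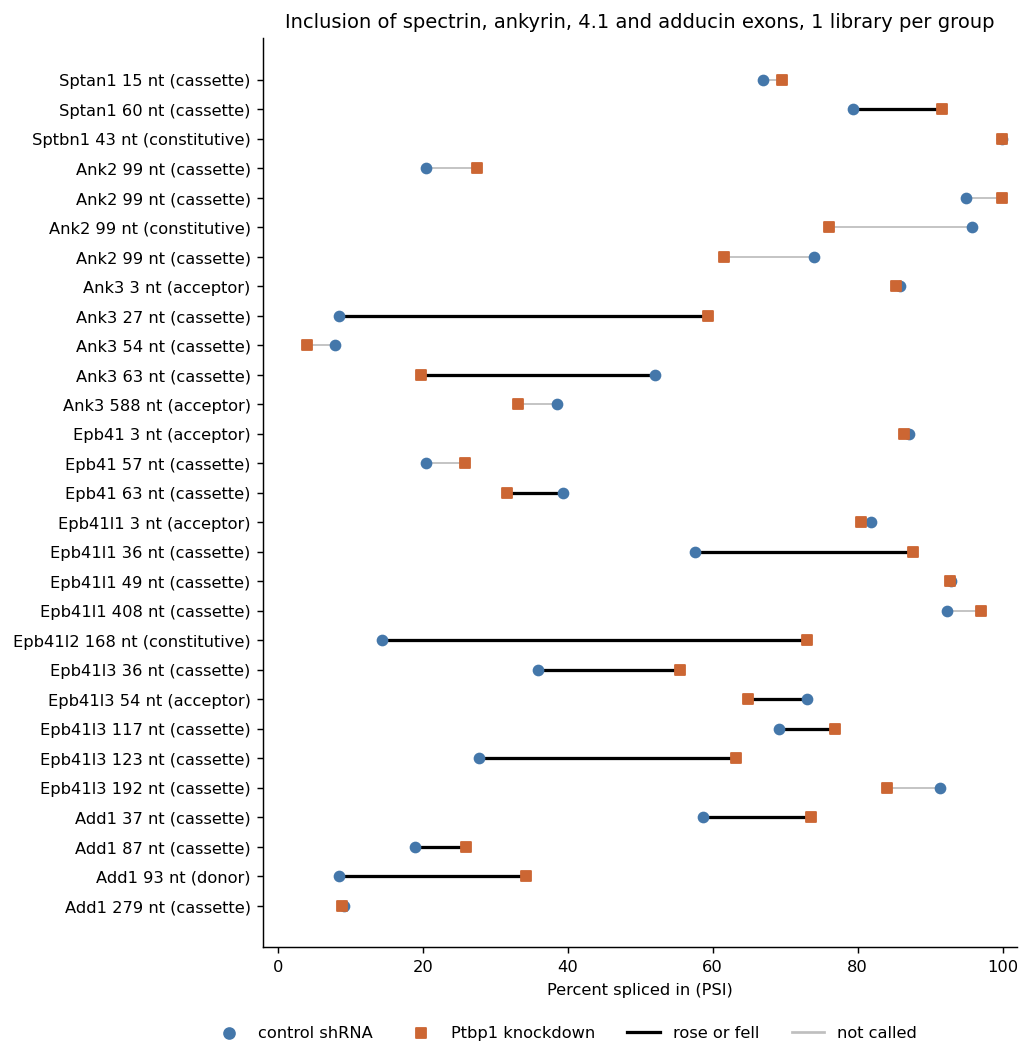
PSI (x axis, percent) of the 29 exons named in the text (y axis, gene, length in nucleotides and class of the trio), with the control library as circles and the knockdown library as squares. Black lines join the 13 exons that rose or fell, and the longest black lines belong to the Epb41l2 exon of 168 nucleotides and the Ank3 exon of 27 nucleotides.

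The sequences that follow are those of the exons whose inclusion differed most or whose role in the protein is known, and of the starts of the giant ankyrin exons. They were read from the NCBIM37 (mm9) genome on the transcribed strand. Lower case marks 100 nucleotides of upstream intron and, for whole exons, 20 nucleotides of downstream intron, and capitals mark the exon (for the giant exons, its first 50 nucleotides). For Ank3 the giant exon shown is the assembled form that starts at 69448837, and other assembled forms start at 69448831. Runs of c and t in the lower-case stretch before the capitals are the kind of sequence that PTBP1 binds. They are sparse before the Ank3 exon of 63 nucleotides, which fell, but not before the Epb41 exon of 63 nucleotides, which also fell. C or T made up 47% and 71% of the upstream stretch shown for these exons.
Ank3 27-nucleotide exon (chr10:69443472-69443618, + strand): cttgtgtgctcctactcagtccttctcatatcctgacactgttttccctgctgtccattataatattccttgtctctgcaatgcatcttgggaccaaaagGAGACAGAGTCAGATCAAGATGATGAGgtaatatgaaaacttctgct
Ank3 63-nucleotide exon (chr10:69367096-69367278, + strand): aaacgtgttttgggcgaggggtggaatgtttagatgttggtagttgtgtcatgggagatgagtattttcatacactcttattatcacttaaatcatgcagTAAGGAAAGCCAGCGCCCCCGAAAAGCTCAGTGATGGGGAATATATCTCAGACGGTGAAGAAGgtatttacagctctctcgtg
Epb41l2 168-nucleotide exon (chr10:25219482-25219769, + strand): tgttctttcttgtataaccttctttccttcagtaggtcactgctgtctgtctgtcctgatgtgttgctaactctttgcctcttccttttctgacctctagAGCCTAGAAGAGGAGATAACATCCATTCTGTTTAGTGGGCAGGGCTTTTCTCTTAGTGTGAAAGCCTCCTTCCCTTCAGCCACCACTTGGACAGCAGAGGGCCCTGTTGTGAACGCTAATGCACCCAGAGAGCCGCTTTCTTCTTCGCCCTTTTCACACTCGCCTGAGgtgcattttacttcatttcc
Epb41l3 123-nucleotide exon (chr17:69633125-69633367, + strand): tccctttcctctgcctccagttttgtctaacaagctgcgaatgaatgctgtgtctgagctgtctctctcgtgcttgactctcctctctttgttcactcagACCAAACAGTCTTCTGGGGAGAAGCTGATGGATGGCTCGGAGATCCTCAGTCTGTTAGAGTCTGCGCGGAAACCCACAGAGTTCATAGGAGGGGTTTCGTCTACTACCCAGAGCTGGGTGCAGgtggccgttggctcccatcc
Epb41l1 36-nucleotide exon (chr2:156337421-156337576, + strand): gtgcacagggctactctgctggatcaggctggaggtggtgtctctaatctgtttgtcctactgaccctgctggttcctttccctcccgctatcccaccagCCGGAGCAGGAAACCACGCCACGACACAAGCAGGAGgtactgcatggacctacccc
Epb41l3 36-nucleotide exon (chr17:69623122-69623277, + strand): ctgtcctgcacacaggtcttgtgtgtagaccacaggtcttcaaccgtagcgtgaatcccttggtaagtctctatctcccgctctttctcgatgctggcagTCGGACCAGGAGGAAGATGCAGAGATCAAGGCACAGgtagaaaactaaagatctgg
Sptan1 60-nucleotide exon (chr2:29856520-29856699, + strand): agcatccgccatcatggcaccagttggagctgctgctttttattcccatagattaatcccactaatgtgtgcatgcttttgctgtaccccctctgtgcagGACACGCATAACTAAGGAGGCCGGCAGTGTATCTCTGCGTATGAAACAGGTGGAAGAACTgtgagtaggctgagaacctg
Epb41 63-nucleotide exon (chr4:131518819-131519001, - strand): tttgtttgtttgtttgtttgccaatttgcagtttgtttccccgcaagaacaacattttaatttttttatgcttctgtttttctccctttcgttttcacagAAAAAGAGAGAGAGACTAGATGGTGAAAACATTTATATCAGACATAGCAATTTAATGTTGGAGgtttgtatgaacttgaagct
Ank2 giant exon start (chr3:126650676-126650825, - strand): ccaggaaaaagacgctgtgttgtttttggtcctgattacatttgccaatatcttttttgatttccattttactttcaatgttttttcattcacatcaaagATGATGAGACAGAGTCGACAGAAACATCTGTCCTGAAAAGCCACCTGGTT
Ank3 giant exon start (chr10:69448737-69448886, + strand): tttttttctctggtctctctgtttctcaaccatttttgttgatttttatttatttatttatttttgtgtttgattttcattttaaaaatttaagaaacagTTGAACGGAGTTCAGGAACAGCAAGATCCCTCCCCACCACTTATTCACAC

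The spectrin genes were spliced in nearly the same way in both libraries except at a single Sptan1 exon. Sptan1 encodes alpha II spectrin, and its exon of 60 nucleotides encodes an insert beside the SH3 domain. PSI of that exon was 79.3 in control cells and 91.6 in knockdown cells, a rise of 12.3 points. The junctions into and out of it held 1029 and 716 reads in control cells and 1201 and 854 in knockdown cells. Skipping reads went the other way, from 296 to 115, and the interval of the junction difference was 12.2 to 18.3 points. Fisher's exact test, two-sided and adjusted by Benjamini-Hochberg over the exons of the data set, gave p = 4.39e-19. Like every such p here, it compares the libraries and not the conditions. The other 3 alternative exons of Sptan1 were not called. The cassette exon of 15 nucleotides had a PSI of 67.0 and 69.6 (interval -1.36 to 6.35 points), and in 52 of the 56 Sptan1 exons PSI was 95 or more in both libraries. Sptbn1, which encodes beta II spectrin, had 34 exons, none with an alternative trio and all with a PSI of 95 or more in both libraries. The change in PSI was 0 points in each of the 34, and the exon of 43 nucleotides, for example, had 4 and 1 skipping reads beside 1809 and 1274 on its better-covered junction.

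Ank3, the ankyrin-G gene, held both the clearest fall of the family and one of its largest rises. The cassette exon of 63 nucleotides (chr10:69367196-69367258, + strand) is coding in the annotation, and it had a PSI of 52.1 in control cells and 19.7 in knockdown cells. Its inclusion junctions fell from 54 and 43 reads to 21 and 23, while skipping reads rose from 46 to 108 (interval -45.65 to -22.0 points, adjusted Fisher's exact p = 3.36e-05). The exon of 27 nucleotides (chr10:69443572-69443598, + strand) changed the other way, from a PSI of 8.4 to 59.4. Reads into that exon were 23 and 106 and reads out of it were 1 and 23, against 227 and 74 skipping reads (interval 32.7 to 50.1 points, adjusted Fisher's exact p = 1.41e-18). The junction difference was 41.55 points, and the PSI change of 51 points lay above this interval. The exon was absent from the GENCODE annotation used here, but Cufflinks assembled isoforms with it in both libraries, and these held 4.61% of the depth of isoforms that span the site in control cells and 58.7% in knockdown cells. For the exon of 63 nucleotides the same share was 61.8% and 19.3%. Other alternative exons of Ank3 differed less: the exon of 54 nucleotides went from 7.9 to 4.0, the alternative acceptor of 588 nucleotides from 38.5 to 33.1, and the acceptor choice of 3 nucleotides from 85.9 to 85.3, all with intervals that include 0.

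The giant exons of both ankyrin genes were used more in knockdown cells. SpliceTrap holds these exons only in pieces, so the call rule never tested them, and they were chosen for description after their values were seen. In Ank3, both libraries' assembled isoforms contained an internal exon of 7674 nucleotides (chr10:69448837-69456510, + strand), which lies downstream of the exon of 27 nucleotides. Its isoform depth was 10.65 in control cells and 118.5 in knockdown cells. Other assembled forms start at 69448831. One of 7680 nucleotides had a depth of 51.71 in control cells and 0 in knockdown cells, and one of 8364 nucleotides had 20.47 and 37.1. Reads that joined the end of the giant exon to the exon after it numbered 133 in control cells and 270 in knockdown cells. Reads that reached the same next exon from upstream of the giant exon fell from 164 to 64. SpliceTrap also lists an exon of 218 nucleotides with the same end (chr10:69456293-69456510, + strand), with 2 reads into it in each library. Reads out of this end do not by themselves tell the giant exon from the short one. The shared end took 44.8% of the reads that reached the next exon in control cells (95% Wilson interval 39.2 to 50.5) and 80.8% in knockdown cells (76.3 to 84.7). The difference was 36.1 points (Newcombe interval 28.8 to 42.8, Fisher's exact p = 3.36e-21, unadjusted). No junction read into the start at 69448837 was held by any trio, and the start at 69448831 was not searched.

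In Ank2 the giant exon was annotated, with 6198 nucleotides (chr3:126644528-126650725, - strand), and both of its junctions could be counted. On its downstream side the giant exon took 69 reads against 33 that skipped it in control cells, and 144 against 17 in knockdown cells, or 67.6% and 89.4%. On its upstream side it took 12 against the same 33 reads, and 25 against 17, or 26.7% and 59.5%. Both sides thus rose, by 21.8 points (interval 11.7 to 32.1) and 32.9 points (12.1 to 50.03), with unadjusted Fisher's exact p-values of 1.95e-05 and 0.00248, although the level differed between the sides. Read depth inside the exons moved with the junctions. A piece of 1777 nucleotides of the Ank2 giant exon had 66.1 reads per 100 nucleotides in control cells and 133 in knockdown cells, while the junction reads of the whole gene went from 4837 to 4198. A piece of 2541 nucleotides of the Ank3 giant exon had 140 and 249 reads per 100 nucleotides, while junction reads of the gene went from 7782 to 7327. Relative to the gene's junction reads, depth was 2.33 times higher in Ank2 and 1.89 times higher in Ank3. By Cufflinks, isoforms with a giant exon held 31.9% and 63.2% of the depth of the isoforms that span it in Ank2, and 35.8% and 77.1% in Ank3. The Ank3 shares take all assembled giant forms together. These are readouts of the same reads and not separate experiments.

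**Figure D2:**
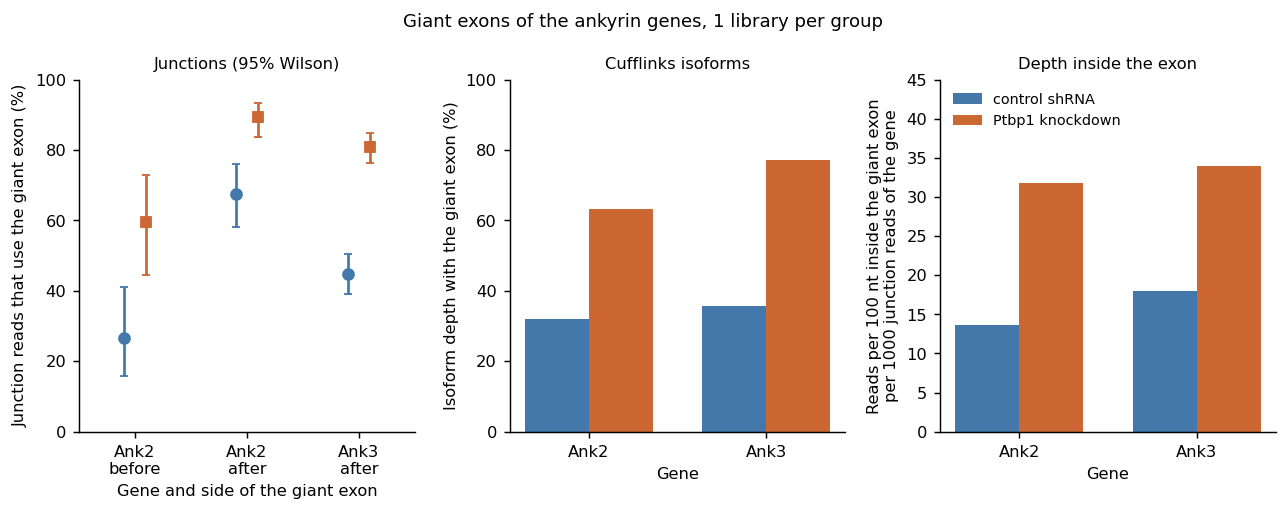
Use of the giant exons of Ank2 and Ank3 in control cells (blue) and the knockdown library (orange), 1 library each. Left, percent of junction reads that use the giant exon, before or after it, with 95% Wilson intervals. For Ank3 the end of the giant exon is shared with a listed exon of 218 nucleotides. Middle, percent of Cufflinks isoform depth with the giant exon. Right, reads per 100 nucleotides inside the exon per 1000 junction reads of the gene. Every measure is higher in knockdown cells, from 31.9% to 63.2% for Ank2 and 35.8% to 77.1% for Ank3 in the middle panel.

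None of the 47 tested exons of Ank2 was called. Of these, 4 named exons were each 99 nucleotides long. Their PSI was 20.5 and 27.5, 94.9 and 99.9, 95.7 and 76.1, and 74.0 and 61.5 in the control and knockdown libraries, and each interval included 0. Junction reads were few in this gene, with a median of 156 and 114 for an exon against 862 and 705 over the whole family.

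The protein 4.1 genes held 7 of the 13 called exons. Epb41l2, which encodes 4.1G, had the largest rise in PSI among the called exons, in an exon of 168 nucleotides (chr10:25219582-25219749, + strand) that SpliceTrap lists as constitutive. Its PSI was 14.4 in control cells and 73.0 in knockdown cells (interval 39.9 to 64.4 points, adjusted Fisher's exact p = 4.68e-13). The junctions into and out of it held 25 and 27 reads in control cells and 98 and 174 in knockdown cells, against 41 and 12 reads that skipped it within this trio. In a second trio with another upstream exon PSI was 38.7 and 90.7. Most reads that passed over the exon did not end at the exons of either trio. When every junction that ended at the exon or passed over it was counted, inclusion was 9.05% in control cells and 45.8% in knockdown cells, a rise of 36.8 points (interval 32.0 to 41.4). By that count the Ank3 exon of 27 nucleotides had the larger point value, 38.85, and the intervals of the 2 exons overlap. The next exon, of 54 nucleotides, was not called by its trio (84.6 and 98.3, interval -0.606 to 8.39 points), but by every junction it was included at 24.5% and 49.7%, a difference of 25.2 points (19.8 to 30.4). No Cufflinks isoform had an exon with the ends of the exon of 168 nucleotides. The rise was thus seen for both exons by every junction, and its size depended on which junctions were counted.

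Epb41l3, which encodes 4.1B, had 3 exons that rose and 1 that fell. The cassette exon of 123 nucleotides (chr17:69633225-69633347, + strand) had a PSI of 27.7 in control cells and 63.2 in knockdown cells. Its inclusion junctions went from 92 and 261 reads to 167 and 458, while skipping reads went from 399 to 147 (interval 31.5 to 42.8 points, adjusted Fisher's exact p = 4.23e-30). A second, of 36 nucleotides (chr17:69623222-69623257, + strand) rose from 35.9 to 55.5 (11.97 to 30.3 points, adjusted Fisher's exact p = 0.00238), and that of 117 nucleotides, at the end of the coding sequence, from 69.2 to 76.9 (4.35 to 13.02 points, adjusted Fisher's exact p = 0.0212). The alternative acceptor of 54 nucleotides fell from 73.0 to 64.8. Its interval of -12.9 to -1.295 points lay just below 0, and its adjusted Fisher's exact p was 1. The share of Cufflinks depth was 77.65% in control cells and 100% in knockdown cells, and it was the same for the exons of 36, 123 and 117 nucleotides. The knockdown library had 1 isoform at these sites, so this share cannot show a direction. The direction of the acceptor stays uncertain. A cassette exon of 192 nucleotides, between those of 36 and 123, had a PSI of 91.3 and 84.1, and its interval of -6.38 to 4.53 points included 0.

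Epb41l1, which encodes 4.1N, the form abundant in neurons, had 1 exon that rose. This cassette exon of 36 nucleotides (chr2:156337521-156337556, + strand) went from a PSI of 57.6 to 87.6. By every junction at the exon inclusion was 43.7% and 72.2% (24.95 to 32.1 points), while isoforms with it held 68.3% and 69.9% of Cufflinks depth, so the assembled isoforms hardly moved. The trio had 808 and 334 inclusion reads and 661 skipping reads in control cells, and 1255, 464 and 183 in knockdown cells (interval 32.4 to 39.6 points, adjusted Fisher's exact p = 1.54e-69). The junction difference was 36.1 points, and the PSI change of 30 points lay below this interval. Both 4.1N and 4.1B thus included more of a cassette exon of 36 nucleotides in knockdown cells, and without gaps the 2 exons shown above are identical at 17 of 36 positions. A cassette exon of 408 nucleotides had a PSI of 92.3 and 97.0, which fell short of the 5-point threshold, and an interval of 2.91 to 6.52 points. The exon of 49 nucleotides had a PSI of 92.8 and 92.7 with 2 skipping reads in each library, while its share of Cufflinks depth was 100% and 30.2%, and the acceptor choice of 3 nucleotides was 81.8 and 80.5.

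Epb41, which encodes 4.1R, the founding member known from red cells, had 1 called exon. Its cassette exon of 63 nucleotides (chr4:131518839-131518901, - strand) encodes part of the domain that binds spectrin and actin, and it had a PSI of 39.3 in control cells and 31.6 in knockdown cells. The interval was -18.5 to -2.04 points and the adjusted Fisher's exact p was 0.969. By every junction at the exon the difference was -4.83 points with an interval of -11.9 to 2.42, and the share of Cufflinks depth went the other way, from 18.1% to 39.9%, so the direction is uncertain. An exon of 57 nucleotides upstream of it had a PSI of 20.4 and 25.8 (-3.82 to 11.6 points), and the acceptor choice of 3 nucleotides was 87.1 and 86.4.

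Add1, which encodes alpha adducin, had 3 exons that rose, of 4 with an alternative trio. The alternative donor that adds 93 nucleotides (chr5:34959464-34959556, + strand) was used at a PSI of 8.5 in control cells and 34.2 in knockdown cells. Skipping reads went from 742 to 387, while the longer form's reads went from 70 and 58 to 192 and 162 (interval 19.2 to 27.7 points, adjusted Fisher's exact p = 1.07e-25). A cassette exon of 37 nucleotides, which is not a multiple of 3 and is partly coding in the annotation, went from 58.7 to 73.5 (9.335 to 22.9 points, adjusted Fisher's exact p = 0.00152). Another, of 87 nucleotides went from 18.9 to 26.0 (2.37 to 11.6 points, adjusted Fisher's exact p = 0.297), and the exon of 279 nucleotides stayed at 9.2 and 8.9. Isoforms with the exon of 37 nucleotides held 47.1% and 59.6% of Cufflinks depth. For the exon of 87 nucleotides the share hardly moved, from 15.9% to 16.5%. The isoform with the longer donor form held 7.57% of depth in control cells and 33.3% in knockdown cells.

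**Figure D3:**
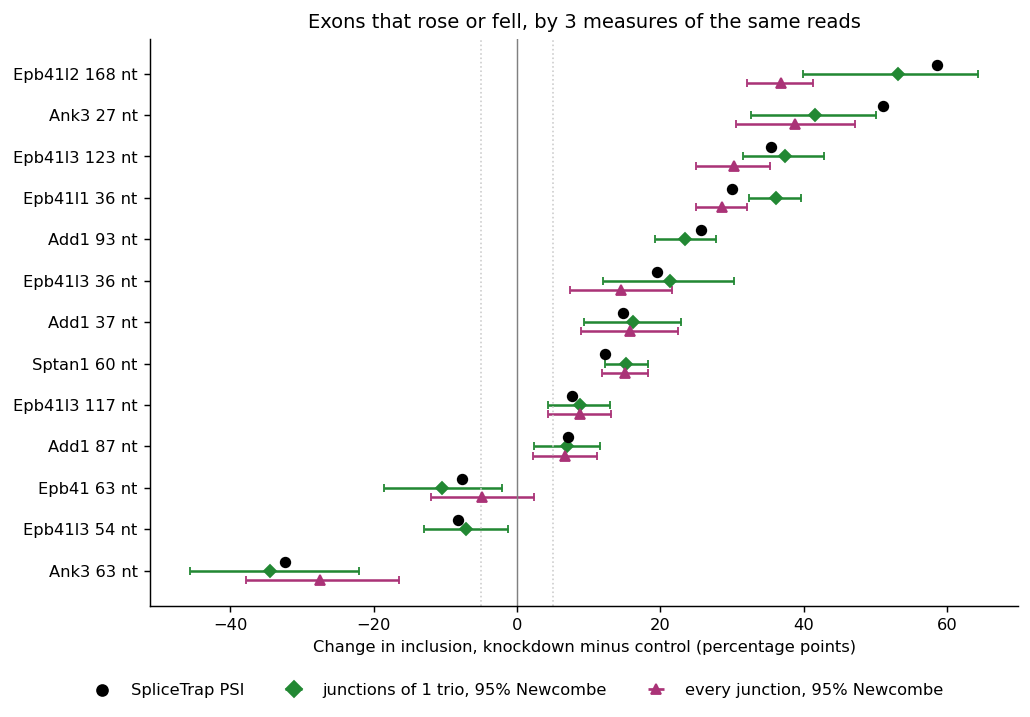
Change in inclusion (x axis, percentage points, knockdown minus control) of the 13 called exons by SpliceTrap PSI (circles), the junction reads of 1 trio (diamonds) and every junction at the exon (triangles). Bars are 95% Newcombe intervals of counting error and dotted lines mark 5 points. The Epb41l2 exon differs most between measures, with 58.6 points by PSI and 36.8 by every junction, and the Epb41 interval by every junction crosses 0.

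The 9 exons that rose and are of cassette or constitutive class followed introns rich in pyrimidines. In the 250 nucleotides upstream, the share of overlapping triplets made only of C and T had a median of 26.6% (range 21.0% to 38.3%), and each lay above the median of 18.55% over the 113619 exons of these classes. The 30 member exons represented by a cassette trio had a median of 23.4%, against 18.95% over all 5802 such exons. The highest share was upstream of the Epb41l3 exon of 123 nucleotides, where CTCTCT matched 3 times in the window with overlaps counted. The giant exons of Ank2 and Ank3 followed windows with 31.9% and 35.9%, above 97.6% and 98.98% of exons. The exons that fell went opposite ways, with 11.3% for the Ank3 exon and 30.2% for the Epb41 exon. Searched on the transcribed strand only, TCTT was present upstream of 7 of the 9 exons that rose (77.8%), against 84.4% of all exons, and CTCTCT upstream of 3 (33.3%), against 16.3%. TGCATG, the motif of the Rbfox proteins, lay in the 250 nucleotides downstream of 3 of them (33.3%; 9.87% of all exons) and in the 250 nucleotides upstream of 3 (33.3%; 8.62%), and it occurred 3 times downstream of the Epb41 exon of 63 nucleotides. CTCTCT holds no TCTT of its own, but matches of a motif may overlap each other, and a match is a description of letters and not a binding site.

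**Figure D4:**
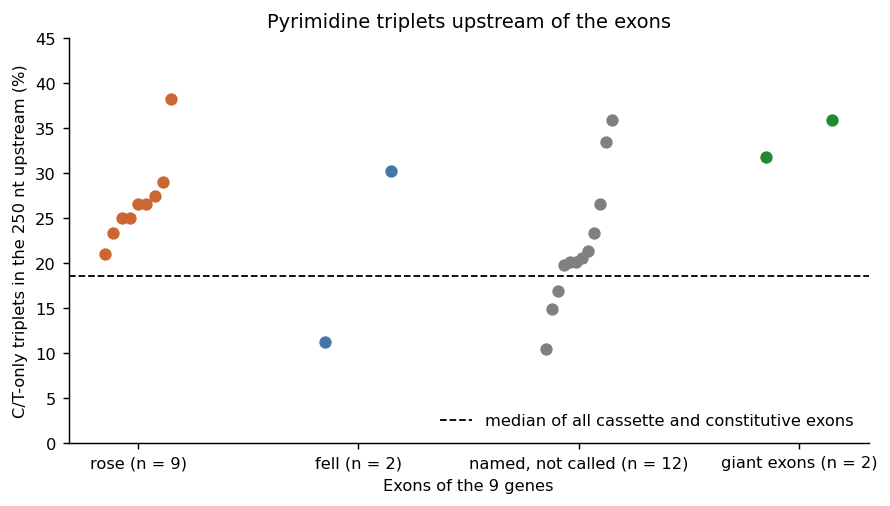
Share of triplets made only of C and T in the 250 nucleotides upstream (y axis, percent) for the named cassette and constitutive exons and the giant exons, as points grouped by call (x axis). The dashed line is the median of all cassette and constitutive exons, 18.55%. All 9 exons that rose and both giant exons lie above it, and of the 2 that fell 1 lies above and 1 below.

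Expression showed no change of the family that held across measures. As a check of the labels, Ptbp1 was 438 per 1000000 of library depth in control cells and 132 in knockdown cells, summed over its RefSeq isoforms, a log2 ratio of -1.73. Ptbp2 had a ratio of 0.78 and Ptbp3 of -1.14. By the same sum, 3 of the 9 genes passed 1.5-fold: Ank2 was 16.5 and 30.5 per 1000000 (log2 0.89), Ank3 was 71.6 and 27.9 (-1.36), and Epb41 was 69.5 and 43.7 (-0.67). Over all 11632 genes 23.3% passed upward and 13.2% downward. The RefSeq sum left out isoforms that Cufflinks assembled itself. RefSeq isoforms held 55.0% of the depth of the Ank3 locus in control cells and 14.2% in knockdown cells, and for Epb41 83.6% and 56.2%. With all isoforms of the locus the log2 ratio was 0.45 for Ank2, 0.59 for Ank3 and -0.10 for Epb41, and with distinct junction reads per 1000000 it was 0.15, 0.26 and -0.04. By junction reads none of the 9 genes passed 1.5-fold, with ratios from -0.16 (Sptbn1) to 0.29 (Epb41l1), while 19.1% of 11145 genes passed upward and 1.48% downward. The median log2 ratio of all genes by junction reads was 0.18. Ank2 thus had a ratio above 0 and Epb41 one below 0 by each measure, but past 1.5-fold by RefSeq isoforms alone. By junction reads Ank2, at 0.15, lay below the median of all genes. The direction of Ank3 turned with the measure. In bulk RNA, fewer cells that express a gene and less RNA per cell cannot be told apart.

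The other 6 genes stayed within 1.5-fold by these 3 measures, but by the deposited gene FPKM Sptbn1 had a log2 ratio of -1.21. Sptan1 was 399 and 417 per 1000000 by RefSeq isoforms (log2 0.06) and 0.27 by junction reads. Sptbn1 was 314 and 382 (0.28), but -0.16 by junction reads. Epb41l1 had 0.00, Epb41l2 -0.08, Epb41l3 -0.02 and Add1 -0.10 by RefSeq isoforms. The changes in inclusion of Epb41l1, Epb41l3, Sptan1 and Add1 exons thus stood beside totals within 1.5-fold by each measure, gene FPKM included. Some of these totals did differ, with log2 ratios of -0.50 for Epb41l3 and -0.28 for Add1 by gene FPKM and 0.29 for Epb41l1 by junction reads.

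**Figure D5:**
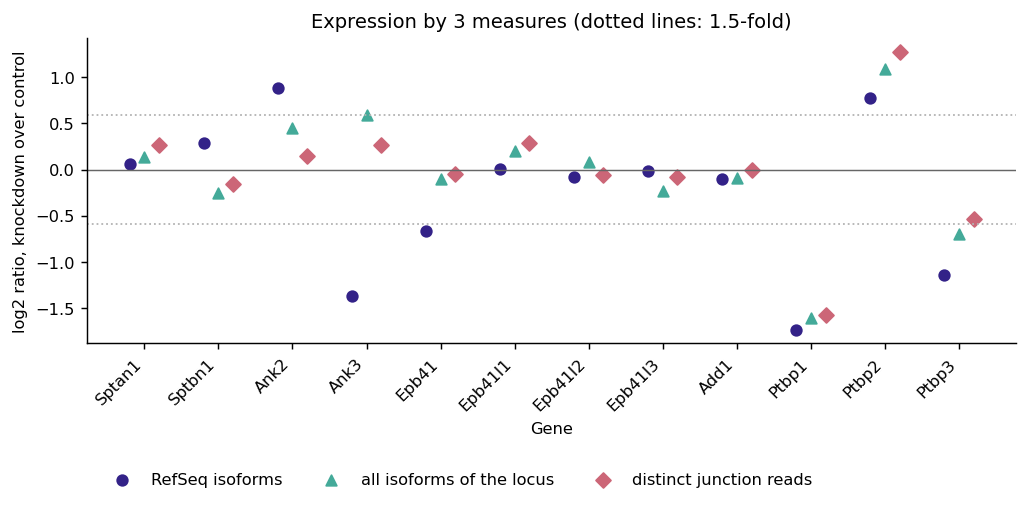
Log2 ratio of expression (y axis, knockdown over control) of the 9 genes and of Ptbp1, Ptbp2 and Ptbp3 (x axis) by RefSeq isoforms (circles), all isoforms of the Cufflinks locus (triangles) and distinct junction reads (diamonds). Dotted lines mark 1.5-fold. The measures part for Ank3, from -1.36 by RefSeq isoforms to 0.59 by locus, and stay together for Ptbp1.

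Of 42 other genes of the membrane skeleton and its partners, 27 passed the minimum. By RefSeq isoforms 4 of the 27 were up and 13 down past 1.5-fold, with a median log2 ratio of -0.42. Over all 11632 genes 23.3% passed upward and 13.2% downward by this measure. By junction reads 8 were up and 3 down of 27, with a median of 0.13, so the balance turned with the measure. Over all 11145 genes with junction reads 19.1% passed upward and 1.48% downward. Sptbn4, Tmod3 and Actg1 were among those that passed in the same direction by both. Sptbn4, the beta IV spectrin of axon initial segments and nodes, was up (1.48 by RefSeq isoforms and 1.05 by junction reads, from 1279 and 2075 reads). Tmod3, which caps actin filaments, was down (-1.07 and -1.08), as was the cytoplasmic actin Actg1 (-1.89 and -0.89). By RefSeq isoforms alone L1cam and Scn8a were up. For Scn8a and Gypc the junction count was 0, which can also stand for a gene that was not looked up. Among those down by it were Tpm1, Slc4a3, Gypc, Actb, Capza2 and Calm3, and Dmtn, Scn2a and Capza1 had 0 RefSeq depth in knockdown cells. By junction reads alone those up included Sptb, Dmtn, Slc4a3, Scn2a and Atp1b1, and Tpm3 was down.

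The line's markers were those of a neuroblast. Of the 14 neuroblast and neuron genes 12 passed the minimum, and the summed level of the list was 2006 per 1000000 in control cells and 2198 in knockdown cells. Nefl and Nefm did not pass it, at 0.0427 and 0.111 per 1000000 in knockdown cells and less in control cells. The summed level of the 4 glial genes was 5.78 and 3.63, of the 3 fibroblast genes 0.140 and 0.541, and of the 2 leukocyte and 4 erythroid genes at most 0.0512. Aqp4, Cd68 and Hbb-b1 had a RefSeq depth of 0 in both libraries, but Cd68 had 19 and 23 junction reads. Col1a1 had 28 and 74. The libraries held 74382387 and 58295142 reads on distinct junctions.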

How the data were processed

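RNA from 2 groups of N2A cells, 1 library each, was sequenced by the authors as strand-specific, paired reads of 100 bases; the submitters' processing notes name CASAVA, TopHat and Cufflinks and the build mm9. The authors ran SpliceTrap, whose deposited files give for each exon trio an inclusion ratio as a fraction of 0 to 1, raw counts of reads on each junction, and coverage, a signal in reads per 100 nucleotides. Versions are not given in the sources used here. The deposited Cufflinks tables give isoform coverage, a depth signal, and FPKM values on an unusual scale, which serve only as an alternative, with isoforms assembled separately in each library.

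Ratios were multiplied by 100 to give PSI. Reads on a trio are coverage times length over 100, with a minimum of 20. Each exon was represented by its deepest trio, summed over libraries, and the middle exon's place inside the mm9 GENCODE span set its gene. Junction PSI took the mean of the inclusion junctions. A distinct junction took the highest count among its trios. Gene sums are isoform coverage times length over the library total, per 1000000, with RefSeq accessions matched to symbols for 26928 of 27601 and 26936 of 27604 isoforms and a minimum of 20 read equivalents. Genome sequence was NCBIM37. Python 3.11.15, pandas 2.3.3, scipy 1.17.1 and pysam 0.24.0 were used. The call rule was tested on simulated junction reads that held counting error only, so that test does not cover spread between cultures.

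Exons were named if they rose or fell, if an alternative exon lay between PSI 5 and 95 in either library, or as the largest change per gene with 20 junction reads in each library. The genes, lists and tests were chosen with earlier results of these data known. With 1 library per group the tests compare libraries only. Some genes of the wider lists count in the totals but are not reported here by name.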

Additional observations from a re-analysis of the deposited data

How the results depend on the processing

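The number of exons that rose was 10 and lay within 1.5 times of that under every setting tried but 1: without the junction interval 17 rose. The number that fell was 3, and was less stable: 1 with a change of 10 points, 9 without the junction interval, and 1 with Fisher's exact test in place of the interval, which was the Ank3 exon of 63 nucleotides. The number of exons tested and the median change of the exons that rose (22.65 points) stayed within their ranges. Of 63 values of single exons under other settings, 55 lay inside the exon's own interval, 8 outside it and 0 changed sign. The 8 include values of the Ank3 exon of 27 nucleotides and the Epb41l1 exon of 36 nucleotides. The main PSI changes of these exons lay outside their own intervals. Counts over every junction at an exon, over whole loci and over distinct junctions were chosen after seeing the data.

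Gene expression depended on the measure. Instead of 3 genes past 1.5-fold, 1 passed at 2-fold, 1 by gene FPKM (Sptbn1, which is none of the 3, at a log2 ratio of -1.21), 1 by whole loci (Ank3, upward) and 0 by distinct junction reads. The median log2 ratio of the 9 genes was -0.02, and -0.27 by gene FPKM with a pseudocount of 1 or 0.1. Ank3 turned from -1.36 to 0.59 by whole locus and 0.26 by junction reads, and the loci hold isoforms that the RefSeq sum leaves out. Of the wider list, 17 genes passed 1.5-fold, 10 passed 2-fold, 26 passed without a minimum and 11 by junction reads. Few junction reads limit Ank2, and replicates are absent, so no spread between cultures is known. No paired analysis was possible because each group has 1 library.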

Other observations

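Some exons of these genes moved without meeting the call rule, and they were picked out after their values were seen. An Ank2 exon of 12 nucleotides that SpliceTrap lists as constitutive had a PSI of 94.6 in control cells and 99.9 in knockdown cells, with an interval that includes 0. By every junction at the exon it was included at 38.5% and 61.4%, a difference of 22.9 points (interval 5.87 to 38.2), from 48 and 22 reads that passed over it. An Ank2 exon of 186 nucleotides went the other way by every junction, from 100% to 89.5% (interval -24.1 to -1.64 points), on 0 and 4 reads that passed over it. An Epb41 exon of 36 nucleotides had a PSI of 4.5 and 70.7, but its interval ran from -19.3 to 90.5 points. An Ank3 exon of 225 nucleotides had a PSI of 79.2 and 99.9 with 0 skipping reads in either library. In all, 13 exons passed 5 points in PSI with an interval that included 0.

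The acceptor choices of 3 nucleotides in Ank3, Epb41 and Epb41l1 changed by at most 1.3 points of PSI, while their shares of Cufflinks depth were 91.1% and 100%, 100% and 85.97%, and 68.3% and 90.9%. Among the markers of the line, Dbh and Th, which encode enzymes of catecholamine synthesis, were higher in knockdown cells, with log2 ratios of 2.02 and 2.26 by RefSeq isoforms and 2.13 and 2.55 by junction reads. Gap43, a growth cone protein, had 0.76 and 0.79. Of the 14 neuroblast and neuron genes, these 3 alone passed the minimum and 1.5-fold upward by both measures. The median log2 ratio of those past the minimum was 0.12 by RefSeq isoforms (12 genes) and 0.38 by junction reads (10 genes). Tubb3, Stmn2 and Chga were below 0 by both. Gata3 was -1.70 by RefSeq isoforms and 1.02 by junction reads. Th rested on few junction reads, 63 in control cells and 289 in knockdown cells.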
